A study of Homo sapiens with 4 samples.

Results

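The short arm of chromosome 8 was described through the genes that HCT116 cells express from it. Members were the rows of the deposited table that lie on chromosome 8, begin before 45 Mb of hg19 and reach an average of 1 FPKM or more across the 4 libraries, with 14 named genes set aside by the rule. FPKM are fragments mapped to a gene, scaled to its transcript length and to all mapped fragments of the library. By this rule 173 of the 57815 genes listed were members, out of 902 listed for the arm. They were thus chosen by position and by mean FPKM over both groups, and the difference between the groups was not part of the rule.

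HCT116 is an established human colorectal cancer cell line. The 3′ WRE-Mut cells are 1 clone of this line in which CRISPR/Cas9 deleted TBE1, the first T-cell factor binding element of the Wnt-responsive enhancer downstream of MYC (genotype label: MYC 3' TBE1 knockout). The control cells are the parental population (genotype label: wild type). PolyA RNA from 2 biological replicates of 3′ WRE-Mut cells and 2 of control cells was sequenced with single reads of 50 cycles. Both 3′ WRE-Mut libraries come from the same clone, so the deletion and any other property of the clone cannot be told apart. The sources do not say whether replicates were separate cultures, and the p-values below measure the spread between these libraries only.

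The short arm of chromosome 8 carries several candidate tumour suppressor genes and is lost in many epithelial tumours, colorectal ones among them, often together with gain of the long arm, on which MYC lies. Close to the centromere it holds a region that is amplified in some breast and lung cancers and contains the receptor gene FGFR1. The arm also encodes enzymes, transporters and chromatin proteins that have no relation to each other apart from their position.

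MYC, whose enhancer was targeted, had 48.0 and 34.2 FPKM in the 3′ WRE-Mut libraries, against 111 and 113 FPKM in the control libraries, and fell by 1.44 ± 0.25 on the log2(FPKM + 1) scale (SE; limma, adjusted p = 0.0216 over protein-coding genes). It lies on the long arm (chr8:128747680-128753674) and is no member. Between 27585 and 29356 genes were above 0 in a 3′ WRE-Mut library, against 26851 to 27813 in a control library. Pearson's r of log2(FPKM + 1) over the coding members was 0.955 between the 3′ WRE-Mut libraries, 0.975 between the control libraries and 0.872 to 0.937 between groups, with 3′ WRE-Mut replicate 2 in the lowest values; this is a description across genes, which are not replicates. Of 7 epithelial markers, 5 (EPCAM, CDH1, KRT8, KRT18 and KRT19) were above 1 FPKM in every library, while CDX1 was listed at 0 in all. VIL1 stayed below 1 FPKM in all. The markers summed to 1808 to 1915 FPKM in 3′ WRE-Mut libraries and 2612 to 2853 FPKM in control libraries. EPCAM, KRT8, KRT18 and KRT19 were lower in 3′ WRE-Mut cells. CDH1 was higher, with 49.5 and 73.0 FPKM against 42.3 and 24.3 FPKM in control cells. Of 11 markers of fibroblasts, leukocytes and endothelium, 2 (COL1A1 and CD68) were above 1 FPKM in every library, and the 11 summed to 90.4 to 99.5 FPKM in 3′ WRE-Mut libraries and 54.8 to 59.8 FPKM in control libraries. The part of these marker differences in the results below was not tested.

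Of the 173 members, 123 are protein-coding in the Gencode annotation, 28 are long non-coding RNAs, 9 are small RNAs or short pseudogenes with a transcript under 200 bases, 6 have identifiers without an entry, and the others are longer pseudogenes or a sense intronic RNA. The coding members had mean levels of 1.08 to 582 FPKM with a median of 9.48 FPKM. Of them, 3 were above 100 FPKM, 55 lay between 10 and 100 FPKM and 65 were below 10 FPKM. Clusterin (CLU), a secreted chaperone, had the highest mean level of all members. It was followed by cathepsin B (CTSB), a lysosomal protease, with 407 and 477 FPKM in 3′ WRE-Mut cells and 393 and 330 FPKM in control cells. INTS10, a subunit of the Integrator complex that processes nascent RNA, had 137 and 116 FPKM in 3′ WRE-Mut cells and 116 and 120 FPKM in control cells, so its groups overlapped.

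Across the arm the coding members were shifted to lower values in 3′ WRE-Mut cells. Their median log2 fold change was −0.24 (lower quartile −0.65, upper quartile 0.17), against −0.02 over all 11631 protein-coding genes tested. Of 123 coding members, 85 (69.1%) lay below 0, against 51.5% of all coding genes. The shift was present in both 3′ WRE-Mut libraries: relative to the mean of the control libraries, the median of the members was −0.22 for replicate 1 and −0.21 for replicate 2. In 71 members both 3′ WRE-Mut libraries lay below the control mean, and in 32 both lay above it. Over all 11631 coding genes these numbers were 4676 and 4547. The members were chosen with earlier results known, so these medians are descriptions without a test. In bulk libraries such as these, fewer cells expressing a gene and less RNA per cell cannot be told apart.

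Single genes were tested with limma on log2(FPKM + 1) over all 11631 protein-coding genes at an adjusted p under 0.05. Among the 123 coding members 4 rose (3.25%) and 11 fell (8.94%), against 4.02% and 4.31% of all coding genes, of which 8.33% were called in either direction. At an unadjusted p under 0.05, 13 members were higher and 31 lower, against 14.6% and 15.6% of all coding genes (30.1% in either direction). The groups did not overlap in 57 members that were lower in 3′ WRE-Mut cells (46.3%, against 32% of all coding genes) and in 26 that were higher (21.1%, against 30.9%). The 4 genes that rose were TUSC3, SLC25A37, CLU and LETM2. The 11 that fell were ERICH1, AGPAT5, ERI1, FAM86B1, ZDHHC2, PDGFRL, SH2D4A, HR, SORBS3, EGR3 and TM2D2. These calls depended on which libraries gave the spread. A fit that leaves out a library takes the spread within groups from the intact pair alone. With a control library left out, that pair was the 3′ WRE-Mut one, whose replicates differed more from each other. Without control replicate 1 or without control replicate 2 no member was called in either direction, and over all coding genes 76 and 82 calls were left. Without 3′ WRE-Mut replicate 1, both counts of members were higher, as was the number of calls over all coding genes. Without 3′ WRE-Mut replicate 2 the counts were again 4 and 11. All 15 genes kept their direction in every alternative that tested them. With 2 libraries against 2, an exact permutation test of a single gene cannot give a two-sided p below 0.333, so the calls rest on the spread that limma shares across genes.

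**Figure D1:**
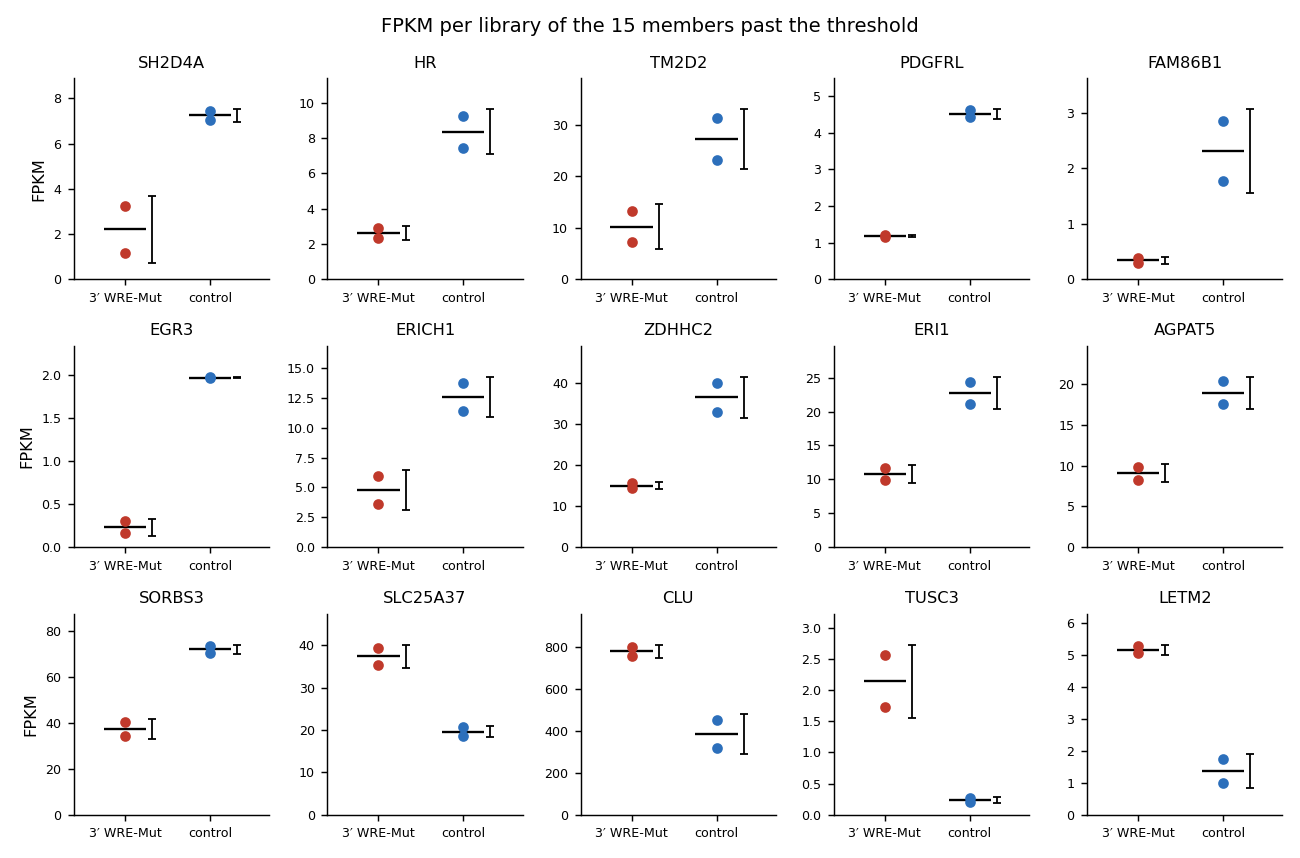
FPKM of the 15 coding members past the threshold, 1 panel per gene, with a linear axis from 0. Points are libraries (3′ WRE-Mut red, control blue), the horizontal line is the group mean and the bar beside it the SD of the 2 libraries. In each of the 15 panels the groups do not overlap, and the lowest levels are those of EGR3, FAM86B1 and TUSC3.

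Among nuclear proteins, 3 of 26 coding members concerned with transcription, chromatin or RNA fell and none rose, with a median log2 fold change of −0.25. At an unadjusted p under 0.05 (limma), 1 was higher and 6 were lower. For all lists and windows below, the shares over all coding genes were 4.02% risen, 4.31% fallen and 51.5% below 0. At an unadjusted p under 0.05 (limma) they were 14.6% higher and 15.6% lower. No list or window was tested against these shares. HR encodes hairless, a corepressor of nuclear receptors. It had 2.32 and 2.91 FPKM in 3′ WRE-Mut cells, against 9.28 and 7.47 FPKM in control cells, and fell by 1.37 ± 0.28 on the log2 scale (limma, adjusted p = 0.0301). The gene lies at chr8:21971928-21990897 of hg19 on the minus strand, and the loci below are given on the same build as the deposited table has them. Where that table merges genes, the locus is the span of all of them, not of the gene. It is shared by 5 genes for ERICH1, PDGFRL and SORBS3 and by 4 for ERI1. It is shared by 3 for FAM86B1, TUSC3, SLC25A37 and LETM2, and by 2 for AGPAT5. ERI1 (chr8:8859657-8974256, plus strand), a 3′ exoribonuclease that trims histone mRNA, had 9.88 and 11.7 FPKM in 3′ WRE-Mut cells, against 21.1 and 24.4 FPKM in control cells. ERI1 fell by 1.01 ± 0.25 (limma, adjusted p = 0.0450). EGR3 (chr8:22545172-22941132, minus strand), an immediate early transcription factor, had low levels in all libraries, with 0.298 and 0.158 FPKM in 3′ WRE-Mut cells and 1.97 and 1.98 FPKM in control cells. EGR3 fell by 1.28 ± 0.27 (limma, adjusted p = 0.0336), and its locus in the deposited table is merged over 11 genes. Its mean reached 1 FPKM in control cells only, so the gene was a member through the group in which it was high. The most abundant genes of the list did not pass. CCAR2, an inhibitor of the deacetylase SIRT1, had 85.9 and 80.6 FPKM in 3′ WRE-Mut cells and 58.5 and 72.1 FPKM in control cells (log2 fold change 0.35, adjusted p = 0.329), and INTS10 had a log2 fold change of 0.09 (adjusted p = 0.799). The gene with the highest fold change in the list was THAP1, a zinc finger factor, at 0.82 (adjusted p = 0.110).

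Of the 16 coding members that maintain DNA or act in cell division, none passed in either direction (limma, 3 lower and none higher at an unadjusted p under 0.05), while 12 lay below 0 and the median was −0.24. POLB, the polymerase of base excision repair, had 36.8 and 47.2 FPKM in 3′ WRE-Mut cells and 36.8 and 30.5 FPKM in control cells (log2 fold change 0.31, adjusted p = 0.425). REEP4, which clears endoplasmic reticulum from chromosomes in mitosis, had 27.6 and 21.2 FPKM in 3′ WRE-Mut cells, against 45.5 and 45.7 FPKM in control cells. Its groups were well apart, but the log2 fold change of −0.89 missed the threshold (limma, adjusted p = 0.0545). The lowest value in this list belonged to PINX1, an inhibitor of telomerase, at −1.08 (adjusted p = 0.071), and the highest to MCPH1 at 0.46.

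Membrane trafficking, the endoplasmic reticulum and ubiquitin accounted for 36 coding members, of which 2 rose, 2 fell and 26 lay below 0 (median −0.13). TUSC3 (chr8:15274724-15624158, plus strand), a subunit of the oligosaccharyltransferase that attaches N-glycans, had 1.73 and 2.56 FPKM in 3′ WRE-Mut cells, against 0.271 and 0.208 FPKM in control cells. TUSC3 rose by 1.33 ± 0.28 on the log2 scale (limma, adjusted p = 0.0340), and its mean reached 1 FPKM in 3′ WRE-Mut cells only. SLC25A37 (chr8:23386318-23432976, plus strand), the mitochondrial iron importer mitoferrin-1, had 35.4 and 39.3 FPKM in 3′ WRE-Mut cells, against 20.6 and 18.6 FPKM in control cells, and rose by 0.89 ± 0.23 (adjusted p = 0.0496). It is counted in this list although its product acts in mitochondria, so TUSC3 was the 1 rise among the other genes. ZDHHC2, a palmitoyltransferase, had the lowest adjusted p of all members. Its level was 15.6 and 14.3 FPKM in 3′ WRE-Mut cells, against 32.9 and 39.98 FPKM in control cells, and fell by 1.23 ± 0.24 (limma, adjusted p = 0.0288). ZDHHC2 has a locus of its own at chr8:17013538-17082308 on the plus strand. TM2D2 (chr8:38846327-38854343, minus strand), a small transmembrane protein, had 13.3 and 7.17 FPKM in 3′ WRE-Mut cells, against 23.1 and 31.3 FPKM in control cells. TM2D2 fell by 1.37 ± 0.32 (limma, adjusted p = 0.0415). In the Gencode annotation used for biotypes it overlaps ADAM9 on the opposite strand, but the listed loci of the pair are separate. Reads of the pair may not be separable where their transcripts do overlap and the strand is not stated. TMEM66, a regulator of calcium entry, had 45.9 and 54.6 FPKM in 3′ WRE-Mut cells and 59.4 and 49.9 FPKM in control cells, with overlapping groups (log2 fold change −0.12). CTSB, the most abundant of the list, had a log2 fold change of 0.29 (adjusted p = 0.442).

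Among 17 coding members of metabolism and transport, 2 rose, 1 fell and 10 lay below 0 (median −0.11). SLC25A37 is also counted here. LETM2 (chr8:38243725-38267045, plus strand), an inner mitochondrial membrane protein, had 5.28 and 5.05 FPKM in 3′ WRE-Mut cells, against 1.74 and 0.984 FPKM in control cells. LETM2 rose by 1.40 ± 0.29 (limma, adjusted p = 0.0324), the largest rise among coding members. In the Gencode annotation used for biotypes it overlaps FGFR1 and RP11-350N15.6 on the opposite strand. Among the listed loci, LETM2 shares its own with RP11-350N15.6, while that of FGFR1 is separate. AGPAT5 (chr8:6565878-6617184, plus strand), an acyltransferase of phosphatidic acid synthesis, had 8.30 and 9.85 FPKM in 3′ WRE-Mut cells, against 20.4 and 17.6 FPKM in control cells, and fell by 0.99 ± 0.25 (adjusted p = 0.0487). Glutathione reductase (GSR) was the most abundant of the list with 38.9 and 35.1 FPKM in 3′ WRE-Mut cells, against 57.5 and 60.5 FPKM in control cells. Its groups did not overlap, and the log2 fold change of −0.66 missed the threshold (limma, adjusted p = 0.0912). VDAC3, a channel of the outer mitochondrial membrane, had 28.8 and 22.3 FPKM in 3′ WRE-Mut cells and 34.8 and 33.2 FPKM in control cells (log2 fold change −0.41, adjusted p = 0.285).

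Signalling, receptors and cell death took 24 coding members, with 1 rise, 3 falls and the lowest median of the role lists (−0.36), while 15 lay below 0. CLU (chr8:27454434-27472548, minus strand) had 802 and 757 FPKM in 3′ WRE-Mut cells, against 451 and 319 FPKM in control cells. This was a mean of 779.6 ± 31.5 FPKM in 3′ WRE-Mut cells and 385 ± 94.0 FPKM in control cells (SD, n = 2 each; limma, log2 fold change 1.04 ± 0.26, adjusted p = 0.0471). SH2D4A (chr8:19171128-19253729, plus strand), an SH2 domain adaptor, had the largest fall among coding members. It had 3.26 and 1.16 FPKM in 3′ WRE-Mut cells, against 7.06 and 7.45 FPKM in control cells, and fell by 1.44 ± 0.35 (limma, adjusted p = 0.0450). The 3′ WRE-Mut libraries differed from each other more than the control libraries did. PDGFRL (chr8:17433942-17658426, plus strand), a secreted protein related to the platelet-derived growth factor receptors, had 1.20 and 1.16 FPKM in 3′ WRE-Mut cells, against 4.61 and 4.43 FPKM in control cells, and fell by 1.34 ± 0.27 (adjusted p = 0.0296). PDGFRL overlaps MTUS1 on the opposite strand. SORBS3 (chr8:22298332-22433301, plus strand) encodes vinexin, an adaptor at focal adhesions, and had 40.4 and 34.2 FPKM in 3′ WRE-Mut cells, against 70.7 and 73.5 FPKM in control cells. SORBS3 fell by 0.94 ± 0.23 (limma, adjusted p = 0.0443), and it overlaps the non-coding RP11-582J16.3 on the opposite strand. PPP2CB, a catalytic subunit of protein phosphatase 2A, had 90.8 and 121 FPKM in 3′ WRE-Mut cells and 95.0 and 63.2 FPKM in control cells, with overlapping groups (log2 fold change 0.43).

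Among 9 coding members of the extracellular matrix, adhesion and cytoskeleton, SORBS3 was the one that fell, none rose and 7 lay below 0 (median −0.27). At an unadjusted p under 0.05 (limma), 1 was higher and 3 were lower. Dematin (DMTN), which binds actin, had 26.9 and 24.5 FPKM in 3′ WRE-Mut cells, against 47.2 and 32.7 FPKM in control cells (log2 fold change −0.59, adjusted p = 0.161). The highest value of this list was that of PDLIM2 at 0.66.

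Members past the threshold with no place in these role lists were ERICH1 and FAM86B1. ERICH1 (chr8:564746-1212580, minus strand), which encodes a glutamate-rich protein, had 5.97 and 3.61 FPKM in 3′ WRE-Mut cells, against 11.4 and 13.8 FPKM in control cells, and fell by 1.25 ± 0.30 (limma, adjusted p = 0.0426). FAM86B1 (chr8:12036206-12051642, minus strand) had 0.299 and 0.388 FPKM in 3′ WRE-Mut cells, against 2.84 and 1.77 FPKM in control cells, and fell by 1.28 ± 0.29 (adjusted p = 0.0386). It belongs to a family of near-identical copies, so its value is uncertain, and its mean reached 1 FPKM in control cells only.

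**Figure D2:**
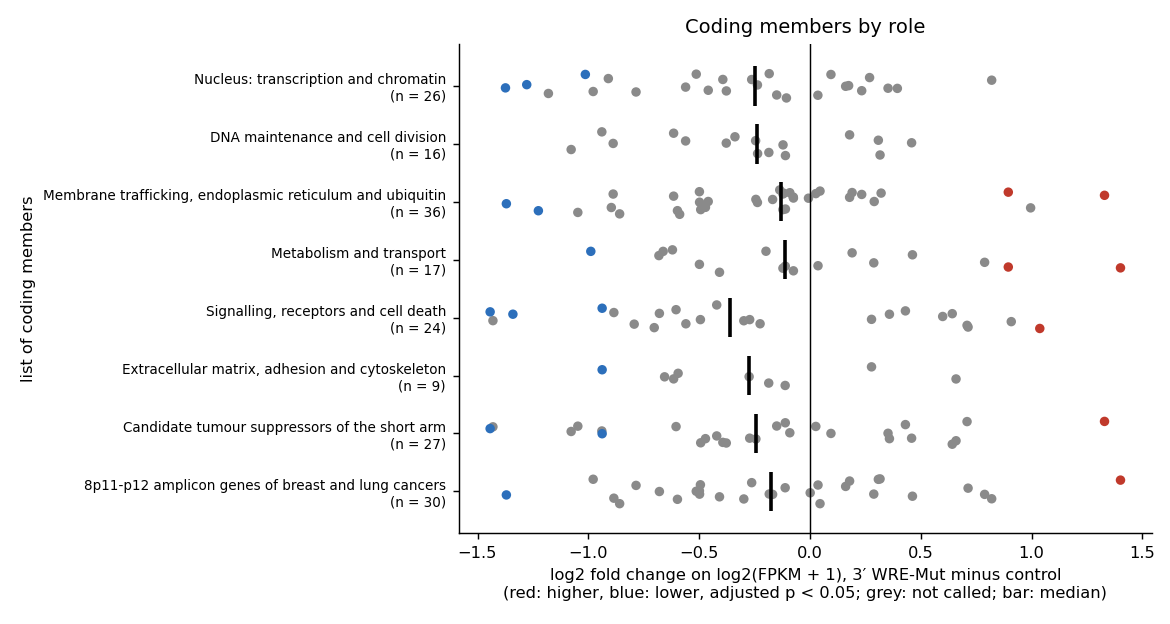
Log2 fold change on log2(FPKM + 1), 3′ WRE-Mut minus control, of the coding members of 8 lists (points; red rose, blue fell, grey not past the threshold) with the median of each list as a bar. A gene can stand in several lists. All 8 medians lie below 0, between −0.36 for signalling and −0.11 for metabolism, while single genes of each list lie on both sides of 0.

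The 27 candidate tumour suppressors of the arm had a median of −0.24, as did all 123 coding members, with 17 below 0, 1 rise (TUSC3) and 2 falls (SH2D4A and SORBS3). The 30 genes of the region amplified in breast and lung cancers had a median of −0.18, with 17 below 0, 1 rise (LETM2) and 1 fall (TM2D2). FGFR1, the receptor gene of that region, had 26.2 and 32.2 FPKM in 3′ WRE-Mut cells and 36.0 and 35.8 FPKM in control cells, a log2 fold change of −0.30 that did not pass (limma, adjusted p = 0.419). Within one merged locus of this region, genes chosen after their values were seen had values on either side of 0: ASH2L had a log2 fold change of −0.98, LSM1 of 0.16 and BAG4 of 0.71.

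Along the arm, values of either sign lay side by side. Of 122 pairs of coding members that follow each other by locus start, 72 had the same sign. Genes of a merged locus share a start and were ordered by identifier, so such pairs need not be neighbours. As 69.1% of the coding members lay below 0, many pairs would share a sign in any order. Whether 72 differs from that was not tested. In windows of 5 Mb the lowest median, −0.69, was that of the 6 coding members between 5 and 10 Mb, 5 of which lay below 0, and 2 of them, AGPAT5 and ERI1, fell. The 7 members between 10 and 15 Mb had a median of −0.46, but their medians in the single libraries were −0.68 for 3′ WRE-Mut replicate 1 and −0.14 for replicate 2. The largest window, 20 to 25 Mb with 26 coding members, had a median of −0.12, 1 rise and 3 falls. Between 25 and 30 Mb, 20 of 24 members lay below 0 (median −0.29), yet none fell and CLU rose. Next to the centromere, between 40 and 45 Mb, the median of 13 members was 0.04 with 5 below 0, 0.13 for 3′ WRE-Mut replicate 1 and −0.13 for replicate 2. This window was the one of 9 with a median above 0.

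**Figure D3:**
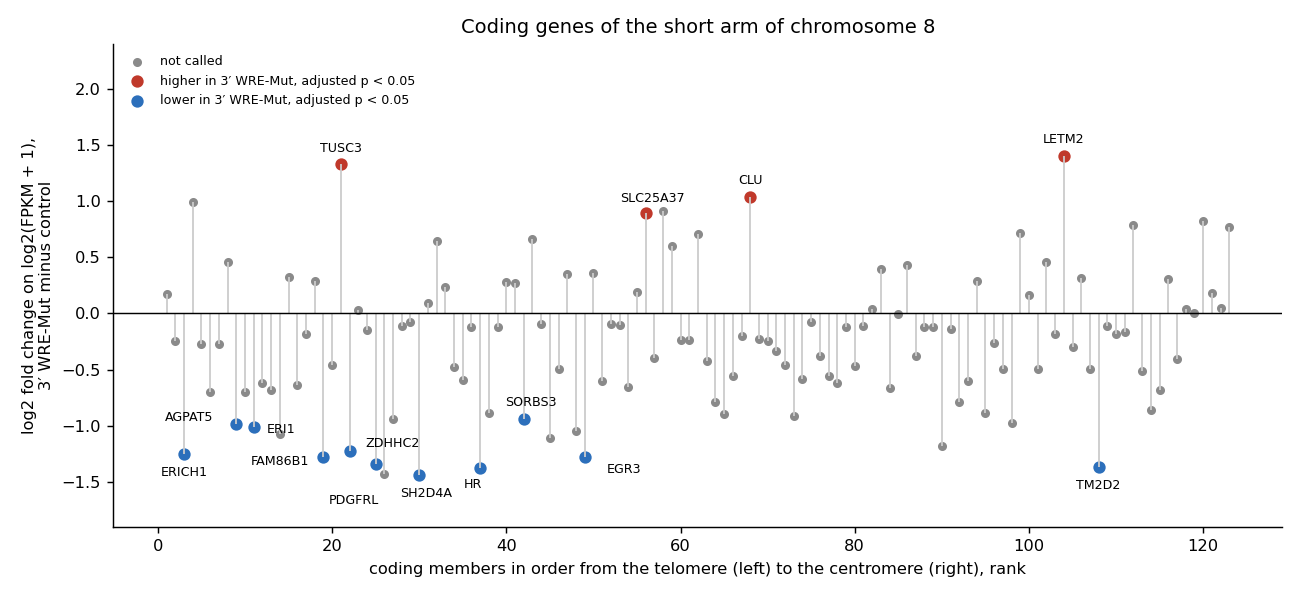
Log2 fold change on log2(FPKM + 1), 3′ WRE-Mut minus control, of the 123 coding members by start of the listed locus, from telomere to centromere (rank, not distance). Genes of a merged locus share a start and stand in order of their identifiers, not of position. Red points rose, blue points fell, and grey points did not pass an adjusted p of 0.05. Of the 11 falls, 10 stand in the part nearer the telomere, from ERICH1 to EGR3, and TM2D2 stands alone near the centromere.

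Set beside the other chromosomes, the coding members had the second lowest median of 24 chromosomes or parts. The lowest was that of the rest of chromosome 8, where 263 coding genes had a median of −0.45, 77.9% lay below 0, 4 rose and 46 fell (17.5%). The medians of the other 22 chromosomes lay between −0.10 (chromosome 13) and 0.13 (chromosome 14). The share of genes below 0 was 44.3 to 55.4% on those chromosomes, against 69.1% of the members. The share that fell was 1.21 to 5.91% on them, against 8.94% of the members. Chromosomes were compared by description alone.

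**Figure D4:**
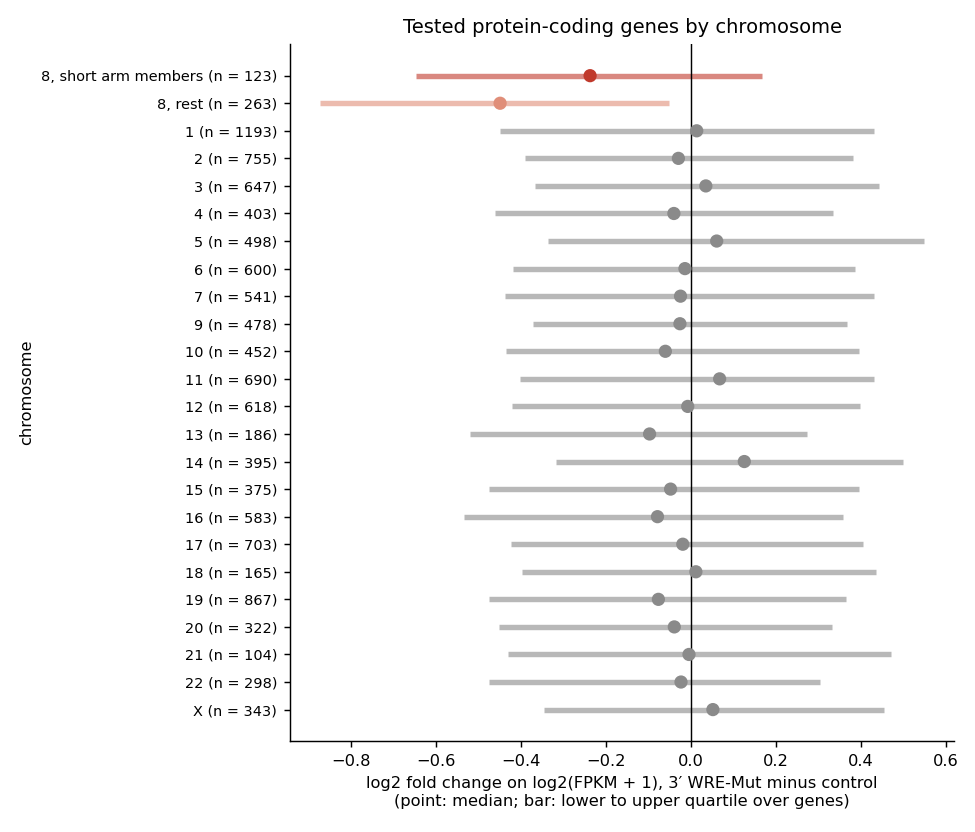
Log2 fold change on log2(FPKM + 1), 3′ WRE-Mut minus control, of tested protein-coding genes by chromosome, as median (point) and lower to upper quartile (bar), with the number of genes. The coding members of the short arm of chromosome 8 (red, median −0.24) and the rest of chromosome 8 (light red, −0.45) lie left of the other chromosomes, whose medians range from −0.10 to 0.13.

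Level also moved with the fold change. The 65 coding members below 10 FPKM had a median of −0.38 with 80% below 0, while the 58 members of 10 FPKM or more had a median of −0.12 with 56.9% below 0. Over all coding genes the same classes had medians of −0.15 (59.5% below 0) and 0.09 (44.05% below 0), so the members were lower in each class. Members on the plus strand had a median of −0.19 (75 genes) and those on the minus strand of −0.36 (48 genes). The 82 coding members at a locus shared with another listed gene had a median of −0.18, and the 41 with a locus of their own of −0.27.

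The 3′ WRE-Mut libraries differed from each other more than the control libraries. Over the coding members, the SD of the difference between replicates was 0.493 in 3′ WRE-Mut cells and 0.332 in control cells on the log2 scale. Most members kept their sign in both 3′ WRE-Mut libraries, as did most of all coding genes. For 11 further coding members the adjusted p lay between 0.05 and 0.1, 10 of them with a log2 fold change below 0. MTUS1 was the lowest of these at −1.43, with 12.6 and 3.75 FPKM in 3′ WRE-Mut cells, against 18.8 and 22.6 FPKM in control cells, and AGPAT6 was the one above 0 at 0.79.

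**Figure D5:**
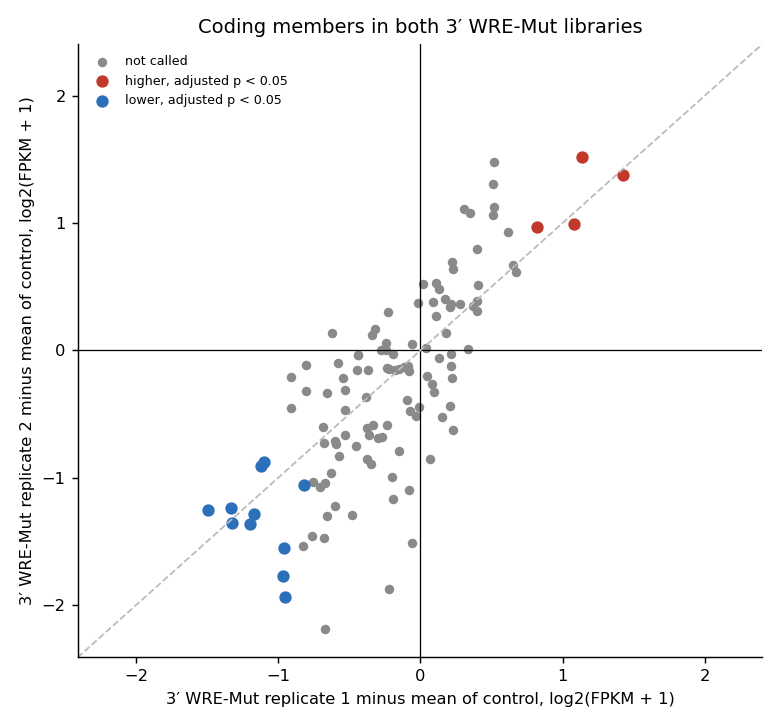
Difference of each 3′ WRE-Mut library from the mean of the control libraries on log2(FPKM + 1), replicate 1 on the horizontal and replicate 2 on the vertical axis, for the 123 coding members. The dashed line marks equal values. In the lower left quadrant lie 71 members and in the upper right 32, the 11 falls (blue) and 4 rises (red) among them.

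The remaining 50 members are non-coding or have no annotation entry. In a limma fit over all 14815 genes, 0 of the 173 members passed, against 0.189% of all genes (0.0877% as higher and 0.101% as lower). MYC, which is no member, did not pass in this fit either (limma, log2 fold change −1.44, adjusted p = 0.149). At an unadjusted p under 0.05, 8 members were higher and 28 lower (11% and 11.2% of all genes, 22.2% in either direction), and the lowest adjusted p was 0.144. The groups did not overlap in 31 higher and 70 lower members, with 28.7% and 30.6% as the shares over all genes. The median of all 173 was −0.23 with 114 below 0 (65.9%, against 51.7% of all genes). The lowest adjusted p belonged to RP11-242F4.2, listed next to ZDHHC2. It had 0.312 and 0.215 FPKM in 3′ WRE-Mut cells, against 3.53 and 4.19 FPKM in control cells (log2 fold change −1.94). With transcripts under 200 bases left out of the fit, RP11-242F4.2 and ZDHHC2 were called as lower, but RP11-242F4.2 averaged 1 FPKM or more in control cells only and was a member through that group. RP11-148O21.6, a long non-coding RNA named after its values were seen, had 0.157 and 0.217 FPKM in 3′ WRE-Mut cells, against 2.09 and 2.01 FPKM in control cells (log2 fold change −1.36, adjusted p = 0.166), again with a mean of 1 FPKM in control cells only. NUDT18 and SGK223 are coding in RefSeq but carry identifiers without an entry in the annotation. NUDT18, a nudix hydrolase, had 0.699 and 0.704 FPKM in 3′ WRE-Mut cells, against 2.97 and 3.03 FPKM in control cells, and it too was a member through the control group only. Added to the protein-coding fit by symbol, after the data were seen, NUDT18 was called as lower (limma, log2 fold change −1.24, adjusted p = 0.0359) and SGK223 was not (−0.99, adjusted p = 0.0594).

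Short RNAs gave no usable comparison. All 9 members with a transcript under 200 bases were listed at 0 in at least 1 library. MIR4659B and AC022716.1 were above 0 only in 3′ WRE-Mut replicate 1, with 51.0 and 40.3 FPKM. RNU6-178P, RNU6-526P and RNA5SP260 were above 0 only in 3′ WRE-Mut replicate 2, with 25.8, 23.9 and 19.9 FPKM. MIR548V and SNORA62 were above 0 only in control replicate 2. Each of these genes thus rested on 1 library.

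At the threshold of the rule, the member with the lowest mean was RP11-10A14.3, with 1.27 and 0.572 FPKM in 3′ WRE-Mut cells and 0.703 and 1.48 FPKM in control cells. Just outside lay FGF17, a fibroblast growth factor, with 0.644 and 0.993 FPKM in 3′ WRE-Mut cells and 0.877 and 1.46 FPKM in control cells. The groups overlapped in both genes. In 9 members the mean reached 1 FPKM in 3′ WRE-Mut cells only and in 16 in control cells only, 2 and 3 of them coding. The 715 other listed genes of the arm had a mean below 1 FPKM, 415 of them at 0 in all libraries, and were not tested as members.

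The 14 genes left out had a median of −0.16, and 2 of them fell. DUSP4, a phosphatase of MAP kinases, had 17.0 and 10.8 FPKM in 3′ WRE-Mut cells, against 54.4 and 54.8 FPKM in control cells (limma, log2 fold change −1.93, adjusted p = 0.0108). HGSNAT, a lysosomal acetyltransferase, had 0.882 and 0.439 FPKM in 3′ WRE-Mut cells, against 4.56 and 4.02 FPKM in control cells (limma, log2 fold change −1.68, adjusted p = 0.0215), and its mean reached 1 FPKM in control cells only. With the 14 put back, the median of 137 coding genes was again −0.24, with 4 rises and 13 falls.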

How the data were processed

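Reads were trimmed by the authors at quality 20 (FASTX-Toolkit) and mapped with TopHat2 2.0.9 to the hg19 build. Cufflinks (2.2.1 in the submitters' notes) then gave 1 FPKM value per gene and library on the Gencode annotation. The deposited FPKM values carry the authors' bounds, whose half-width had a median of 86.8 to 102% of the value over the coding members. Read counts were not used here, low values gave no clean steps of whole reads, and the depth of each library is therefore unknown. The authors' table of their own comparison (group means, fold changes, p-values and q-values) was not used. Neighbouring genes share a locus in the table for 121 of 173 members.

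The groups were compared on log2(FPKM + 1) with limma 3.58.1 (R 4.3.3) and a variance trend, over protein-coding genes (biotype of Gencode 44 lifted to hg19) or all genes, averaging 1 FPKM or more, with Benjamini-Hochberg adjustment over the whole fit and a threshold of 0.05. Fold changes on this scale understate those of low genes. The fits were tested on simulated data. The lists hold 114 of the 123 coding members. Named were members past the threshold, the 2 most abundant of each list, the extremes of the suppressor and amplicon lists, those nearest 1 FPKM, the 5 most abundant and MYC; others are described as chosen after their values were seen or mark the ends of a stated range or count. Members, lists and tests were chosen with earlier results of these data known. No sequences are printed. Alternatives were pseudocounts of 0.1 and 0.5, no filter, an average of 5 FPKM or more, median-ratio and quantile scaling, no variance trend, a replicate block, each library left out, short transcripts left out and the 14 genes put back; coding genes added by RefSeq symbol and a median over coding members alone were added after the data were seen. Python 3.11.15 with matplotlib 3.10.9 made the figures.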

Additional observations from a re-analysis of the deposited data

How the results depend on the processing

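The 4 rises and 11 falls among coding members depended on the settings. The rises numbered 2 with a pseudocount of 0.1, 2 with 0.5, 2 at a mean of at least 5 FPKM, 2 without the variance trend and 0 with no filter. The falls numbered 4 with a pseudocount of 0.1 and 0 with no filter, where 1 of 19403 coding genes was called. In either direction, 6 of 123 members were called with a pseudocount of 0.1, against 4.41% of all coding genes. With 0.5 it was 11 of 123, against 6.67%, and without the variance trend 10 of 123, against 6.98%. At a mean of at least 5 FPKM it was 12 of 82, against 12.5% of all coding genes tested there. With 1 library left out, the rises ranged from 0 to 11 and the falls from 0 to 36, with 0 of each without either control library. The calls over all coding genes went up and down across these fits too. Where the members had their highest counts, the share called in either direction was close to that of all coding genes. These ranges are therefore no result about the arm. A fit that leaves out a library assumes that the lone one varies like the other group. With the replicate number as a block, 8 members rose and 25 fell, or 33 of 123. In that fit 2862 of all 11631 coding genes (24.6%) were called. The deviation of replicate 1 from its group mean correlated between 3′ WRE-Mut and control at r = 0.111 over 11631 coding genes. No source says that a number marks a shared batch or day, so the numbers were not used to pair libraries, and whether they share one was not tested. In the fit over all genes, 0 rises became 0 to 3 with 1 library left out, all of them short RNAs, and 0 falls became 2 with short transcripts left out.

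The median log2 fold change of all 173 members, −0.23, stayed below 0 under every alternative. It was −0.27 and −0.25 with pseudocounts of 0.1 and 0.5, −0.14 at a mean of at least 5 FPKM, −0.21 with median-ratio scaling, −0.18 with quantile normalization and −0.29 to −0.19 with 1 library left out. Of 344 values of single named genes under alternatives, 266 kept their direction and their side of the threshold, 66 no longer passed, 5 newly passed and 7 changed sign, all in genes that did not pass. INTS10 (0.09) was at −0.10 with quantile normalization and ranged from −0.028 without 3′ WRE-Mut replicate 1 to 0.22 with 1 library left out. TMEM66 (−0.12) ranged from −0.24 to 0.0048 with 1 library left out, above 0 without 3′ WRE-Mut replicate 1 (0.0047) or control replicate 1. RP11-10A14.3 (−0.12) was at 0.048 with quantile normalization and ranged from −0.39 to 0.15 with 1 library left out, above 0 without 3′ WRE-Mut replicate 2 (0.14) or control replicate 2. As the depth is unknown, no counting interval can be given for any value.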
